A study of Mus musculus with 4 samples.

Results

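The genes described here encode 10 molecules with which myeloid cells restrain or license T cells and phagocytes. They are the PD-1 ligands Cd274 and Pdcd1lg2, Vsir, the costimulators Cd80 and Cd86, Havcr2 and its ligand Lgals9, the CD47 receptor Sirpa, Cd47 itself and the cytokine Il10. They were chosen by name from a deposited table of 17476 genes, and all 10 passed the filter on low counts. The series asked how myeloid-derived suppressor cells (MDSCs), immature myeloid cells that dampen T cell responses, differ between Trem2 mutant and wild-type (WT) donors. Trem2 is a lipid-sensing receptor of myeloid cells.

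Both groups were labelled as strain C57BL/6 and differed in genotype, WT against Trem2_mutant; which mutation this is was not stated in the labels. Marrow precursors of either genotype were differentiated into MDSCs in culture and injected into NRG males, immunodeficient hosts of NOD background that still have myeloid cells of their own. The recipients were 6 weeks old when given TRAMP-C1 cells, a mouse prostate cancer line, under the skin. MDSCs were injected 4 weeks later and tumours taken 6 h after that, digested for 45 minutes and sorted for CD45, CD11B and GR1. No marker of the gate separated injected from recipient cells. There were 2 libraries per genotype, called here WT 1, WT 2, mutant 1 and mutant 3 after their columns. Nothing in the labels ties a library to a separate animal or culture, so the p-values rest on the spread between libraries, which may be only technical.

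As background, PD-L1 (Cd274) and PD-L2 (Pdcd1lg2) bind PD-1 on T cells and inhibit them, and VISTA (Vsir) is a related inhibitory molecule abundant on myeloid cells. CD80 and CD86 bind CD28, which activates T cells, and CTLA-4, which competes for them. TIM-3 (Havcr2) is an inhibitory receptor with galectin-9 (Lgals9) among its ligands. CD47 is a widely expressed surface protein that tells phagocytes not to engulf the cell through SIRPα (Sirpa), and IL-10 is a secreted cytokine that quiets macrophages and dendritic cells.

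The promoters of the 3 genes that were higher in the mutant libraries, Cd47, Vsir and Lgals9, and of the neighbouring pair Cd274 and Pdcd1lg2 are shown because these genes carry the comparison. Each line gives the 250 bases before the RefSeq gene start (GRCm38.p6), 5′ to 3′ on the gene's strand. Capitals mark matches, on either strand, to motifs whose letters are given with the counts after the sequences. No matches in the lines below overlap each other.
Cd47, chr16:49855404-49855653, plus strand: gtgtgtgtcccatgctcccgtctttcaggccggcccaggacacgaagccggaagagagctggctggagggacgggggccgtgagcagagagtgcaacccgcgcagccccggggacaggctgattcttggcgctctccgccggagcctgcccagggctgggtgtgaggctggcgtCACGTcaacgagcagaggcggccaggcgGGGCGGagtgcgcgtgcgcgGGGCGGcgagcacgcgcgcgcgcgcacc
Vsir, chr10:60346601-60346850, plus strand: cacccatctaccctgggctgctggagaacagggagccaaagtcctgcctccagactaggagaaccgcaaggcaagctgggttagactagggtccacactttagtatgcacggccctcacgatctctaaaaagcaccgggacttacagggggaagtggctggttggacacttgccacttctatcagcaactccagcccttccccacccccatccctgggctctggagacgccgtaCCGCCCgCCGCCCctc
Lgals9, chr11:78984925-78985174, minus strand: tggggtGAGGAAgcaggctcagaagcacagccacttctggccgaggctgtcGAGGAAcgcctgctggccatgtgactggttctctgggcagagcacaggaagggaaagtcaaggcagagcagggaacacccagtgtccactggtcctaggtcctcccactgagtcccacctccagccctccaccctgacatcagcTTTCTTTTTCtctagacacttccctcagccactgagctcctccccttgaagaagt
Cd274, chr19:29367188-29367437, plus strand: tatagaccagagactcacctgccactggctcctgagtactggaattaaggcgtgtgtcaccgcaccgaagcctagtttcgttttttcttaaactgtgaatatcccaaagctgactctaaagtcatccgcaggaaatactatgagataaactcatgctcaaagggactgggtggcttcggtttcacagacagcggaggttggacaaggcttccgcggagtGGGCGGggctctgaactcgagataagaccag
Pdcd1lg2, chr19:29410669-29410918, plus strand: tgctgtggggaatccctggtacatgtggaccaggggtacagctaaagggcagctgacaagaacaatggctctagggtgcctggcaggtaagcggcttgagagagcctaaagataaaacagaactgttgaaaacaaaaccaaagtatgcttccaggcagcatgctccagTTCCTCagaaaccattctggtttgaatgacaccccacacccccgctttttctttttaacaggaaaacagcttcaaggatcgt

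The GC box, spelled GGGCGG and bound by SP1 and related factors, matched at 2 places in Cd47, 2 in Vsir and 1 in Cd274, and 32.9% of 27025 RefSeq promoters of the same length hold one. Cd47 also held 1 copy of the core that hypoxia-inducible factors bind, with the letters ACGTG, found in 16.6% of promoters. Lgals9 alone of the 5 held the element of interferon regulatory factors, a pair of GAAA runs with 2 free bases between them. It started 55 bases before the gene start, and 3.04% of promoters have one. The myeloid factor PU.1 binds a core that was searched as GAGGAA, which matched at 2 places in Lgals9 and 1 in Pdcd1lg2 and is present in 23.1% of promoters. No window matched the cyclic AMP response element, searched as TGACGTCA and held by 1.62% of promoters. None of the 5 matched the AP-1 site, searched as TGANTCA, which 6.87% of promoters hold. The TATA box, searched with the letters TATAAA, was not matched either, against 13% of promoters. Outside these 5, the windows of Cd80 and Havcr2, which are not shown, each held 1 AP-1 match. The window of Cd47 had a GC content of 73.2%, that of Vsir 60.4% and that of Lgals9 58.4%, against 50.4% for Cd274 and 48.4% for Pdcd1lg2 and a median of 52.0% over all promoters. These are letter matches and no measurement of binding was made here.

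Library totals ran from 8037733 to 10306674 reads. Mutant 1 stood apart in that Gm42418, a locus overlapping ribosomal RNA sequence, took 13.9% of its reads, against 0.258% to 1.04% in the other libraries. The gate's antigens were measured: Ptprc (CD45) and Itgam (CD11B) were abundant in every library, while Ly6g, an antigen bound by GR1 antibodies, had 52 and 66 reads in WT 1 and WT 2 and 1198 and 1143 in mutant 1 and mutant 3. The summed level of 14 neutrophil markers was 7458 to 7605 normalised CPM (read counts scaled to library size, with factors from the trimmed mean of M-values, TMM) in WT and 28620 to 34760 in mutant libraries. The sum of 10 monocyte markers was 2156 to 2289 in WT and 5540 to 7502 in mutant libraries, most of the gain from Chil3, which stood at 161 and 168 CPM in the WT pair and 4200.4 and 2884 CPM in the mutant pair. In those lists Csf1r (−0.28, adjusted p = 0.0784), Ccr2 (0.15) and the neutrophil receptor gene Csf3r (0.08) did not pass. Fibroblast markers, 9 in all, summed to 113 to 162 CPM in WT and 407 to 452 CPM in mutant libraries. Xist, the RNA that silences an X chromosome in female cells, had 2 and 3 reads in WT and 6928 and 9117 in mutant libraries. The 4 Y-linked genes measured were all called lower but present, Kdm5d at 374 and 365 reads in WT and 51 and 55 in mutant libraries and Ddx3y at 1030 and 1282 against 757 and 896. The recipients were male and the labels do not state the donors' sex, so genotype, sex of the cells and the share of injected cells cannot be told apart in this contrast. The marker sums, Ly6g, Xist and the Y-linked genes moved with genotype. Gm42418 stood out in mutant 1 only, and Ccr2 and Csf3r overlapped between genotypes. The part of any of these in the results below was not tested. In bulk RNA, fewer cells of a type and less RNA per cell cannot be told apart.

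Of the 10 genes, 3 were higher in the mutant libraries (Cd47, Vsir and Lgals9), 0 were lower and 7 did not pass (edgeR quasi-likelihood test, adjusted p under 0.05 over all genes tested). DESeq2 also called 0 lower, and at an unadjusted p under 0.05 there was 1 lower gene, Pdcd1lg2, among 5 genes in all. Over the 14239 genes tested, 13.2% were called, 9.55% higher and 3.6% lower. The 10 genes had a median log2 fold change of 0.365, against −0.02 over everything tested. In 6 of the 10 genes the 2 genotypes did not overlap in CPM, 4 higher and 2 lower. That share is near the 60.5% of all genes tested that did not overlap, made up of 28.9% with the mutant libraries above and 31.7% with them below. The count of 3 higher genes fell to 1, Cd47, without WT 1 and without WT 2, and rose to 4 without mutant 1, where Cd80 joined. Without mutant 3, 1 gene, Pdcd1lg2, was called lower.

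**Figure D1:**
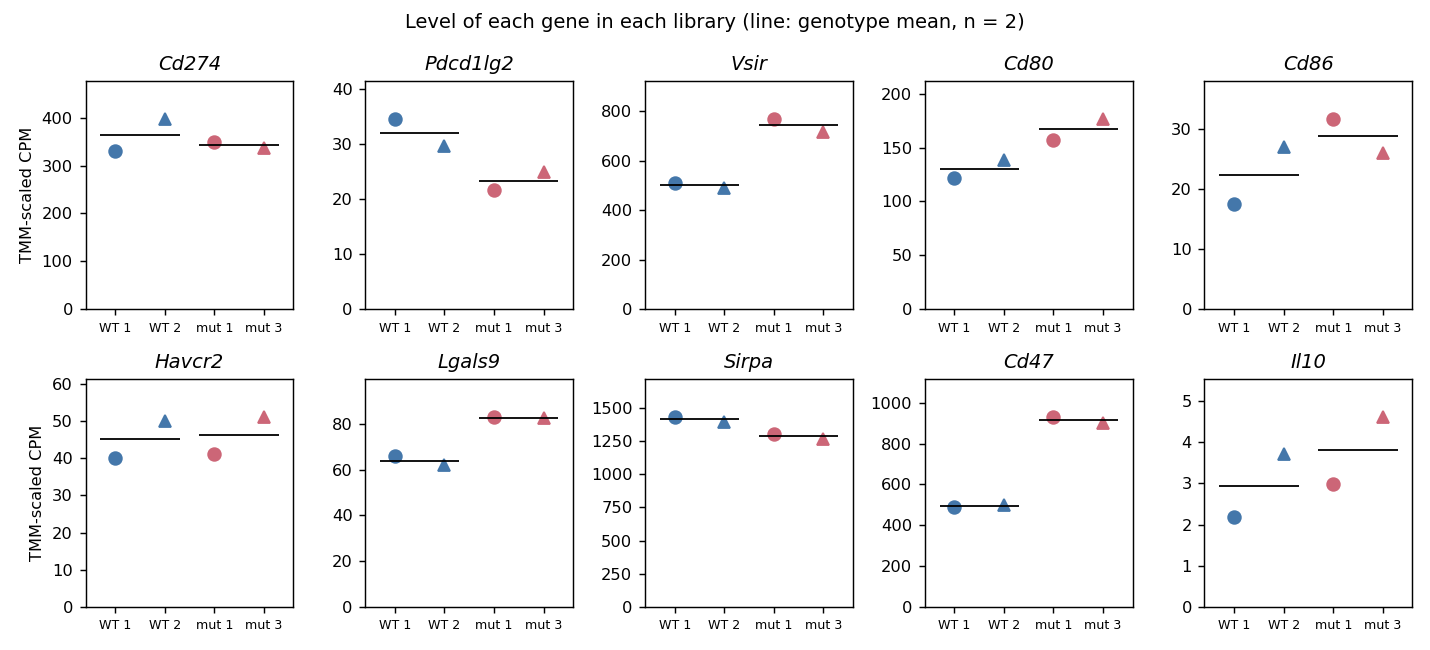
TMM-scaled CPM (y axis, linear, from 0) of each of the 10 genes in the 4 libraries (x axis); circles and triangles are single libraries, blue for WT and red for Trem2 mutant, and lines are means of 2. Cd47, Vsir, Lgals9 and Cd80 sit higher in both mutant libraries than in both WT libraries, Pdcd1lg2 and Sirpa lower, and the other 4 genes overlap.

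Cd47 rose in the mutant libraries, and its receptor Sirpa did not pass the test. Cd47 (ENSMUSG00000055447, GRCm38 chromosome 16, 49800533 to 49915010, plus strand) stood at 489 and 499 CPM in WT 1 and WT 2, and at 931 and 899 CPM in mutant 1 and mutant 3. Both mutant libraries were well above both WT libraries, and libraries of a genotype differed by at most 1.04-fold. Its fold change was 1.85 (95% interval 1.60 to 2.14), a log2 fold change of 0.89 (SE 0.0902, edgeR adjusted p = 0.00105), which placed it 165th by p among 14239 genes. The call held in all 13 alternatives, at log2 fold changes from 0.52 with library totals as the only scaling to 0.93 without mutant 3. The promoter shown for Cd47 lies within this annotated span, since GENCODE carries a transcript that starts further upstream than the RefSeq start.

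Sirpa (ENSMUSG00000037902, chromosome 2, 129592835 to 129632228, plus strand), the inhibitory receptor by which phagocytes read CD47, had the highest level of the 10 genes. It stood at 1434 and 1398 CPM in WT 1 and WT 2 and at 1306 and 1268 CPM in mutant 1 and mutant 3. The groups did not overlap, but the fold change of 0.909 (95% interval 0.776 to 1.07) did not pass (adjusted p = 0.389). Sirpa has relatives of similar sequence, so reads shared with them could be split differently by another counter. Of these, Sirpb1a, Sirpb1b and Sirpb1c had log2 fold changes of −0.01, 0.05 and 0.06 and none passed.

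Within a library, where scaling cancels, the ratio of Cd47 to Sirpa in CPM per kilobase of exon was 0.267 in WT 1 and 0.279 in WT 2. It was 0.558 in mutant 1 and 0.555 in mutant 3, so the mean ratio was 2.04 times that in WT. With 2 libraries against 2, a two-sided exact permutation test cannot go below p = 0.333, so the ratios were not tested.

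**Figure D2:**
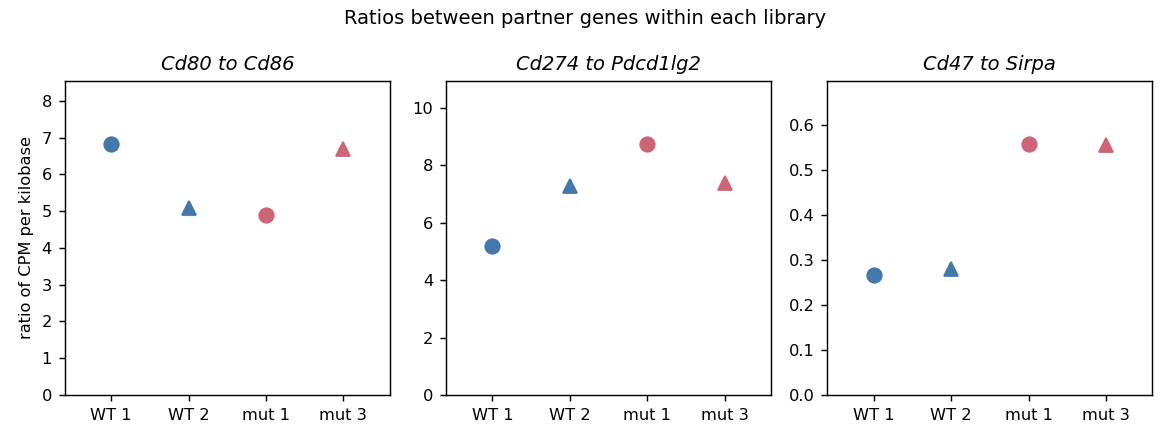
Ratio of CPM per kilobase between partner genes (y axis, linear, from 0) in each library (x axis), for Cd80 to Cd86, Cd274 to Pdcd1lg2 and Cd47 to Sirpa; each point is a library, blue for WT and red for Trem2 mutant. Only the ratio of Cd47 to Sirpa separates the genotypes widely, at 0.267 and 0.279 in WT against 0.555 and 0.558 in mutant libraries.

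Other genes that signal through or beside CD47 went both ways. Of 11 listed genes of CD47 partners and phagocytosis signals, all tested, 3 were higher and 2 lower, with a median log2 fold change of 0.05. Thbs1, encoding thrombospondin-1, a secreted CD47 ligand, stood at 5399 and 6486 CPM in WT and 15224 and 11933 CPM in mutant libraries, a log2 fold change of 1.19 (SE 0.177, edgeR adjusted p = 0.00524). Itgb3, the integrin β3 chain that pairs with αv and associates with CD47, fell from 119 and 118 CPM to 61.3 and 53.2 CPM (log2 fold change −1.05, adjusted p = 6.42e-04), whereas its partner Itgav did not pass (0.15). Lrp1, a receptor for calreticulin in phagocytosis, fell by 0.69 on the log2 scale (adjusted p = 0.00586). Calr, calreticulin, a signal for engulfment, rose by 0.37 and Cd24a, another signal against it, by 0.44. Of these calls the fall of Itgb3 held in every alternative. Without WT 1, 0 genes of the list were called higher and 1 lower, and without WT 2, 1 higher and 1 lower; with library totals alone, 1 was higher and 3 were lower.

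Vsir passed the test and the 2 PD-1 ligands did not. Whether their changes differ was not tested. Vsir (ENSMUSG00000020101, chromosome 10, 60346851 to 60372684, plus strand) stood at 511 and 490.4 CPM in WT 1 and WT 2 and at 769 and 718 CPM in mutant 1 and mutant 3. The mutant libraries were above the WT libraries without overlap. The fold change was 1.49 (95% interval 1.28 to 1.72), a log2 fold change of 0.57 (SE 0.0917, edgeR adjusted p = 0.00727). The call was lost without WT 1 (0.60, adjusted p = 0.0735) and without WT 2 (0.54, adjusted p = 0.0795), and adjusted p over the alternatives that keep a scaling between libraries ran from 2.30e-05 to 0.0795. Vsir lies inside Cdh23, which is on the opposite strand, shares no annotated exon base with it and had 129 to 155 reads per library against 4480 to 6679 for Vsir.

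Cd274 (ENSMUSG00000016496, chromosome 19, 29367455 to 29388095, plus strand) stood at 330.5 and 398 CPM in WT 1 and WT 2 and at 351 and 338 CPM in mutant 1 and mutant 3. The mutant libraries lay inside the WT range. Its fold change was 0.946 (95% interval 0.798 to 1.12, adjusted p = 0.651), and without WT 2 the log2 fold change was 0.06 in place of −0.08. Of its annotated exon bases, 511 are shared with AC119228.1, an antisense gene with no row in the table; without a stated strand setting, reads there cannot be assigned.

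Pdcd1lg2 (ENSMUSG00000016498, chromosome 19, 29410919 to 29471161, plus strand) begins 22.8 kb downstream of Cd274. It stood at 34.5 and 29.6 CPM in WT 1 and WT 2 and at 21.7 and 24.8 CPM in mutant 1 and mutant 3. The groups did not overlap, and at a fold change of 0.727 (95% interval 0.589 to 0.899) the gene just missed the threshold (log2 fold change −0.46, SE 0.131, adjusted p = 0.0586). It was called lower without mutant 3 (−0.54, adjusted p = 0.0183), with upper quartile scaling (−0.50, adjusted p = 0.0444) and with library totals alone (−0.83, adjusted p = 0.00314). Without WT 1 its log2 fold change was −0.34, and without mutant 1 −0.36. Over alternatives that keep a scaling between libraries, adjusted p ran from 0.0183 to 0.355. The ratio of Cd274 to Pdcd1lg2 per kilobase was 5.19 in WT 1, 7.28 in WT 2, 8.75 in mutant 1 and 7.37 in mutant 3, so the genotypes were separated by the step from 7.28 to 7.37 and were not tested. Pdcd1lg2 overlaps the antisense gene A930007I19Rik without a shared exon base; that gene had 417 and 438 reads in WT and 258 and 365 in mutant libraries.

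Interferon gamma signalling, which induces Cd274, gave 1 call. Of 13 tested genes of the interferon gamma to Cd274 axis and PD-L1 stabilisers, 1 was higher, 0 were lower and 12 did not pass, with a median of 0.21. Cmtm6, whose product keeps PD-L1 at the cell surface, was the 1 call, at 410 and 426 CPM in WT and 554 and 568 CPM in mutant libraries (log2 fold change 0.42, edgeR adjusted p = 0.0172). The receptor chains Ifngr1 (0.04) and Ifngr2 (−0.05) and the transcription factor Irf1 (−0.02) did not pass. Myc (0.59), Stat2 (0.45), Hif1a (0.30) and Irf9 (0.29) did not pass either, but were higher at an unadjusted edgeR p under 0.05. No gene of the list was lower at that level. Without WT 1, 0 genes of this list were called, without mutant 3, 5 were higher, and with library totals alone 0 were higher and 1 lower. The call of Cmtm6 was also lost without WT 2. Across the 4 libraries, Irf1 was the listed gene whose centred log2 CPM profile lay nearest to that of Cd274, at a distance of 0.0769 among 89 candidates.

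Neither costimulator passed the test. Cd80 (ENSMUSG00000075122, chromosome 16, 38455561 to 38496335, plus strand) stood at 122 and 139 CPM in WT 1 and WT 2 and at 158 and 177 CPM in mutant 1 and mutant 3. No mutant library fell to the WT range. Its fold change was 1.28 (95% interval 1.09 to 1.502) and narrowly missed the threshold (log2 fold change 0.36, SE 0.0983, edgeR adjusted p = 0.0516). It was called with RLE scaling (adjusted p = 0.0430), without noncoding and mitochondrial genes (0.0416) and without mutant 1 (0.45, adjusted p = 0.00743), and adjusted p reached 0.347 without WT 1.

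Cd86 (ENSMUSG00000022901, chromosome 16, 36603869 to 36666081, minus strand), which binds the same receptors, had 162 and 247 reads in WT 1 and WT 2 and 265 and 243 in mutant 1 and mutant 3. That is 17.6, 27.0, 31.7 and 26.1 CPM in the same order, with WT 2 above mutant 3. Its fold change was 1.29 (95% interval 0.934 to 1.79, adjusted p = 0.261), so its interval holds both no change and the change estimated for Cd80. Leaving out single libraries moved its log2 fold change from 0.10 without WT 1 to 0.71 without WT 2. Per kilobase, Cd80 exceeded Cd86 by 6.84, 5.08, 4.91 and 6.69 times in WT 1, WT 2, mutant 1 and mutant 3, ranges that overlap between genotypes.

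**Figure D3:**
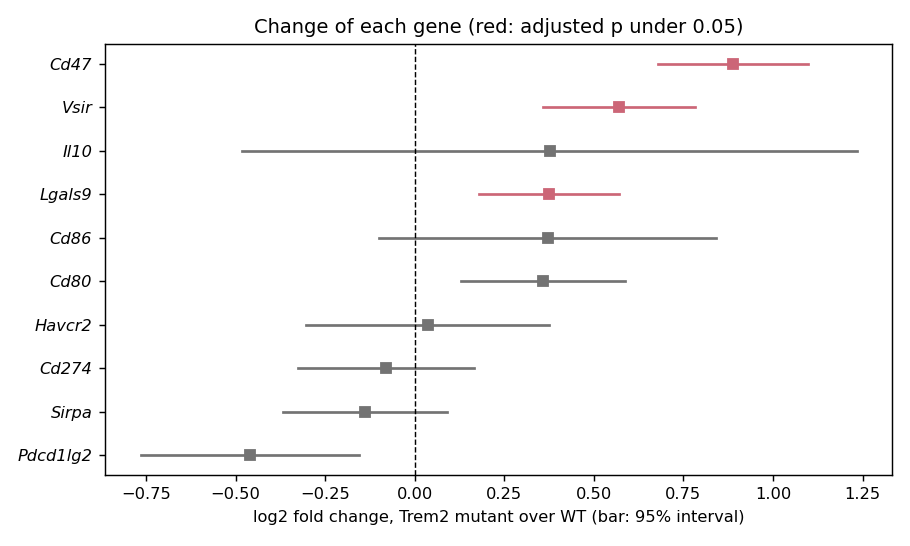
Log2 fold change of Trem2 mutant over WT (x axis) for each of the 10 genes (y axis, ordered by change); squares are edgeR estimates from 2 libraries per genotype and bars are 95% intervals, red where adjusted p was under 0.05. Cd47, Vsir and Lgals9 are the 3 red genes, and Cd80 and Pdcd1lg2 have intervals that leave out 0 but missed the adjusted threshold.

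Other costimulatory and coinhibitory ligands gave no calls. Of 6 tested genes of the other B7 and nectin families (11 listed), 0 were called by edgeR, with a median of 0.15; Icosl, the ICOS ligand, stood at 58.5 to 70.1 CPM in the 4 libraries (log2 fold change 0.14), and Cd200r1 had the lowest p (−0.29, adjusted p = 0.0567). Of 6 tested TNF superfamily genes (11 listed), 0 were called, with a median of 0.20; Tnfrsf14, the HVEM receptor, had the lowest p (0.47, adjusted p = 0.109). At an unadjusted p under 0.05 each list held 1 gene, these same 2, and DESeq2 called 0 of either. With library totals alone, 2 genes of the first list and 1 of the second were called lower. Without mutant 3, 1 gene of each list was called higher. Of the T cell side receptors, 5 of 10 had a row and 2 were tested, Btla (0.13) and Cd160 (−0.05), with neither called by edgeR or DESeq2 and neither at an unadjusted p under 0.05. Cd28 had 5 to 9 reads per library and Lag3 2 to 11; Cd226, which competes with TIGIT, had 5 to 7. Pdcd1, Ctla4, Icos, Tigit and Cd96 are not analysed here. The summed level of the 4 T and NK cell markers with a row was 6.47 to 9.35 CPM across the libraries.

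Of TIM-3 and galectin-9, Lgals9 passed the test and Havcr2 did not; whether their changes differ was not tested. Havcr2 (ENSMUSG00000020399, chromosome 11, 46454935 to 46481255, plus strand) stood at 40.1 and 50.02 CPM in WT 1 and WT 2 and at 41.2 and 51.2 CPM in mutant 1 and mutant 3. The genotypes interleaved, with libraries of a genotype up to 1.246-fold apart. Its fold change was 1.03 (95% interval 0.811 to 1.298, adjusted p = 0.894). Lgals9 (ENSMUSG00000001123, chromosome 11, 78962974 to 78984946, minus strand) stood at 65.8 and 61.8 CPM in WT 1 and WT 2 and at 83.1 and 82.4 CPM in mutant 1 and mutant 3.

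Both mutant libraries were above both WT libraries for Lgals9, by a fold change of 1.297 (95% interval 1.13 to 1.48; log2 fold change 0.37, SE 0.0840, edgeR adjusted p = 0.0262). The call was lost without WT 1 (0.42, adjusted p = 0.145), without WT 2 (0.33, adjusted p = 0.199), with DESeq2 (0.38, adjusted p = 0.111) and with library totals alone (0.0015). Its nearest listed profile was that of Il4ra, at a distance of 0.0662.

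Of 8 tested TIM-3 and galectin partners (10 listed), 3 were higher and 0 lower, with a median of 0.11. Ceacam1, an adhesion molecule and TIM-3 ligand that granulocytes also carry, stood at 50.04 and 48.8 CPM in WT and 129.97 and 101 CPM in mutant libraries (log2 fold change 1.22, SE 0.125, adjusted p = 0.00110), and its call held in all 13 alternatives. Lgals1 (0.80) and P4hb (0.63), a disulfide isomerase that binds galectin-9, rose too. Hmgb1, another TIM-3 ligand (−0.12), and Lgals3 (−0.18) did not pass. Without WT 1, and likewise without WT 2, 1 gene of the list was called higher, and with library totals alone 1 was higher and 4 lower.

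Il10 had the lowest level of the 10 genes, above the floor of 3 counts in every library. Il10 (ENSMUSG00000016529, chromosome 1, 131019845 to 131024974, plus strand) had 20 and 34 reads in WT 1 and WT 2 and 25 and 43 in mutant 1 and mutant 3. Exact Poisson intervals (95%, counting error only) were 12.2 to 30.9 and 23.5 to 47.5 reads in WT, and 16.2 to 36.9 and 31.1 to 57.9 reads in mutant libraries. These are 2.18, 3.72, 2.99 and 4.62 CPM, and each genotype's pair spanned more than the gap between the genotype means. The fold change was 1.298 (95% interval 0.717 to 2.35, adjusted p = 0.534), an interval that holds falls as well as rises, and a difference was not detectable at this depth. Its log2 fold change was 0.04 without WT 1 and 0.81 without WT 2.

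The receptor side of IL-10 was well expressed. Of 9 tested genes of the IL-10 receptors and response (12 listed), 6 were higher and 0 lower, with a median of 0.47. Il10ra, the ligand-binding receptor chain, stood at 248 and 295 CPM in WT and 362 and 391 CPM in mutant libraries (log2 fold change 0.47, edgeR adjusted p = 0.0264), while Il10rb, the shared chain, did not pass (0.06). Stat3 (0.51), the transcription factor of the receptor, and its targets Socs3 (1.06) and Il1rn (0.97), the IL-1 receptor antagonist, rose, as did Nfil3 (0.58) and Il4ra (0.35). Without WT 1, 1 of these genes, Nfil3, was called. Socs3 stood at 897 CPM in mutant 1 and 1426 CPM in mutant 3. With library totals alone, 2 genes of this list were higher.

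Of 11 listed regulators of Il10, 3 were higher and 0 lower, with a median of 0.08. They were Dusp1 (1.11), a phosphatase that turns off p38, Zfp36 (0.88), which destabilises cytokine transcripts, and Cebpb (0.42). In mutant 1 and mutant 3, Dusp1 stood at 1011 and 1673 CPM and Zfp36 at 822 and 1363 CPM. The call of Zfp36 was marginal (edgeR adjusted p = 0.0497) and was lost with upper quartile scaling, the stricter filter, DESeq2 and limma-voom. Maf, an activator of Il10, did not pass (0.08). Without WT 1, 0 were called, and without WT 2, 1; with library totals alone, 2 were higher and 1 lower. Of 10 tested other cytokines (12 listed), 2 were higher and 0 lower, with a median of 0.45: Il1b (1.08) and Il27 (0.94), a cytokine that can induce IL-10 in T cells. Tgfb1, encoding a suppressive cytokine, stood at 266 and 258 CPM in WT and 301 and 226 CPM in mutant libraries and did not pass (0.01). DESeq2 called 0 of these cytokines. The edgeR calls of Il1b and Il27 were also both lost without WT 1 and without WT 2. With each library left out in turn, log2 fold changes ran from 0.60 to 1.46 for Il1b and from 0.77 to 1.14 for Il27. Il1b stood at 6153 CPM in mutant 1 and 11291 CPM in mutant 3.

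SIRPα signals through immunoreceptor tyrosine-based inhibitory motifs (ITIMs) that recruit SHP phosphatases. A list of receptors grouped by name with that class, and of phosphatases, was measured beside it. Whether each mouse receptor on the list carries an ITIM was not checked. Of 13 tested genes of this list (14 listed), 8 were higher and 0 lower, with a median of 0.37. With library totals alone, 1 was higher and 2 were lower. At an unadjusted p under 0.05, Cd300a (−0.25) and Lair1 (−0.33) were lower. Cd33 stood at 623 and 676 CPM in WT and 1273 and 1251 CPM in mutant libraries (log2 fold change 0.96, SE 0.0982, edgeR adjusted p = 0.00110). The sialic acid receptors Siglece (0.67) and Siglecg (0.58) and the lectin receptor Clec12a (0.73) rose too, as did Pilra (0.65), Pecam1 (0.52), Clec4a2 (0.37) and Pirb (0.35). The phosphatase genes Ptpn6 (0.22), Ptpn11 (0.11) and Inpp5d (0.14) did not pass. Without WT 1, 4 of these genes were called higher, and without WT 2, 3; the call of Cd33 held in all 13 alternatives. Cd33 was also the listed gene nearest in profile to Cd47 (distance 0.0944), and Siglece the nearest to Vsir (0.110). Several of these receptors are carried by granulocytes and monocytes, of whose markers 13 of 14 (neutrophil) and 8 of 10 (monocyte) were higher in the same libraries, Csf3r, Csf1r and Ccr2 being the exceptions; their part in these counts was not tested.

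**Figure D4:**
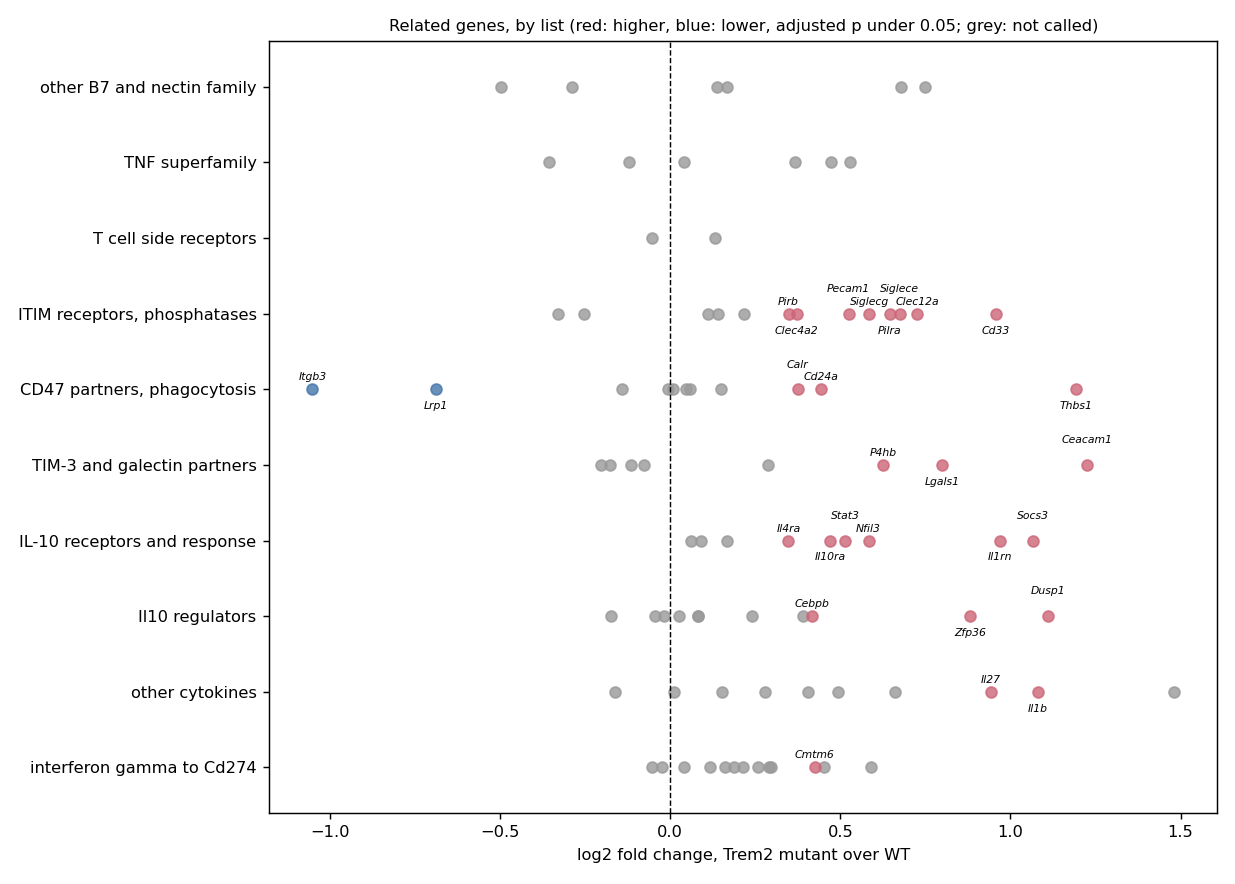
Log2 fold change of Trem2 mutant over WT (x axis) for each tested gene of the 10 related lists (y axis, a row per list); each point is a gene, red or blue where edgeR called it higher or lower and grey where it did not. The row labelled ITIM receptors, phosphatases holds 8 red genes and that of IL-10 receptors and response 6. Itgb3 and Lrp1 are the 2 blue genes, and 3 lists hold no called gene.

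Compared per kilobase of merged exon, levels of the 10 genes spread from 2.25 to 288 CPM in WT. In WT libraries the order was Sirpa (288 ± 5.23 CPM per kilobase, SD, n = 2), Cd274 (100.5 ± 13.1), Vsir (99.8 ± 2.85), Cd47 (78.7 ± 1.15), Cd80 (35.2 ± 3.24), Lgals9 (29.9 ± 1.31), Havcr2 (16.6 ± 2.57), Pdcd1lg2 (16.3 ± 1.78), Cd86 (6.10 ± 1.82) and Il10 (2.25 ± 0.835). Cd274 and Vsir overlapped there, as did Havcr2 and Pdcd1lg2. In mutant libraries Vsir (148 ± 7.23) and Cd47 (146 ± 3.66), which overlapped each other, both stood above Cd274 (95.04 ± 2.44), and Havcr2 (17.0 ± 2.59) above Pdcd1lg2 (11.9 ± 1.13). Sirpa stayed first at 262 ± 5.43 and Il10 last at 2.91 ± 0.878. With the longest coding transcript as the length, Vsir came before Cd274 in WT and Cd47 before Vsir in mutant libraries. Among 11514 protein-coding genes tested, Sirpa was at percentile 99.1 of the mean level per kilobase, Vsir at 97.7, Cd47 at 97.5 and Cd274 at 97.0, and Il10 at 32.6.

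As shares of the summed level per kilobase of the 10 genes, Sirpa took 43.9% and 41.7% in WT 1 and WT 2 and 34.0% and 33.7% in mutant 1 and mutant 3. Cd47 took 11.7% and 11.7% in WT and 19.0% and 18.7% in mutant libraries. Vsir went from 15.3% and 14.4% to 19.6% and 18.7%, and Cd274 from 13.7% and 16.1% to 12.4% and 12.2%.

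Measured against Ptprc, the pan-leukocyte CD45 gene, the 3 called genes separated. Ptprc itself did not pass (log2 fold change 0.24, edgeR adjusted p = 0.147), but its genotypes did not overlap. It stood at 1114 and 1162 CPM in WT and 1328 and 1363 CPM in mutant libraries, which lowers every ratio to it in the mutant libraries. Cd47 reads were 43.9% and 42.9% of Ptprc reads in WT 1 and WT 2 and 70.1% and 66.0% in mutant 1 and mutant 3, 1.57 times the WT mean. Vsir was at 45.8% and 42.2% in WT and 57.9% and 52.7% in mutant libraries, 1.26 times. Lgals9 was at 5.91% and 5.32% in WT and 6.26% and 6.05% in mutant libraries, 1.10 times. On this scale Sirpa went from 129% and 120% to 98.3% and 93.0%, and Cd274 from 29.7% and 34.2% to 26.4% and 24.8%, with both mutant libraries below both WT libraries. In CPM the mutant libraries lay inside the WT range for Cd274. Pdcd1lg2 was at 3.10% and 2.54% in WT and 1.63% and 1.82% in mutant libraries, 0.613 times the WT mean. None of these ratios was tested.

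Markers of other cells that could hold these transcripts were also measured. Dendritic cell markers, 11 of 12 with a row, summed to 42.5 to 65.9 CPM in WT and 56.4 to 57.9 CPM in mutant libraries, and of 9 tested 0 were called by edgeR or DESeq2, with 0 at an unadjusted p under 0.05. Macrophage markers summed to 945 to 1045 CPM in WT and 979 to 1265 CPM in mutant libraries, with 5 of 10 higher. Eosinophil markers, 7 of 8 with a row, summed to 99.8 to 101 CPM in WT and 211 to 239 CPM in mutant libraries, with 6 of 6 tested higher. Erythroid markers, 4 of 6 with a row, summed to 6.74 to 27.6 CPM in WT and 61.3 to 164 CPM in mutant libraries, with 3 of 4 higher. Epithelial markers, 4 of 9 with a row, summed to 154 to 161 CPM in WT and 85.8 to 88.5 CPM in mutant libraries, nearly all of it Cdh1, with Krt8 at 0 to 5 reads per library. Marker genes that were at 0 in both WT libraries were Ear1 of the eosinophil list and Tsix of the sex-linked list. What each of these populations gives to the levels of the 10 genes was not tested.

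**Figure D5:**
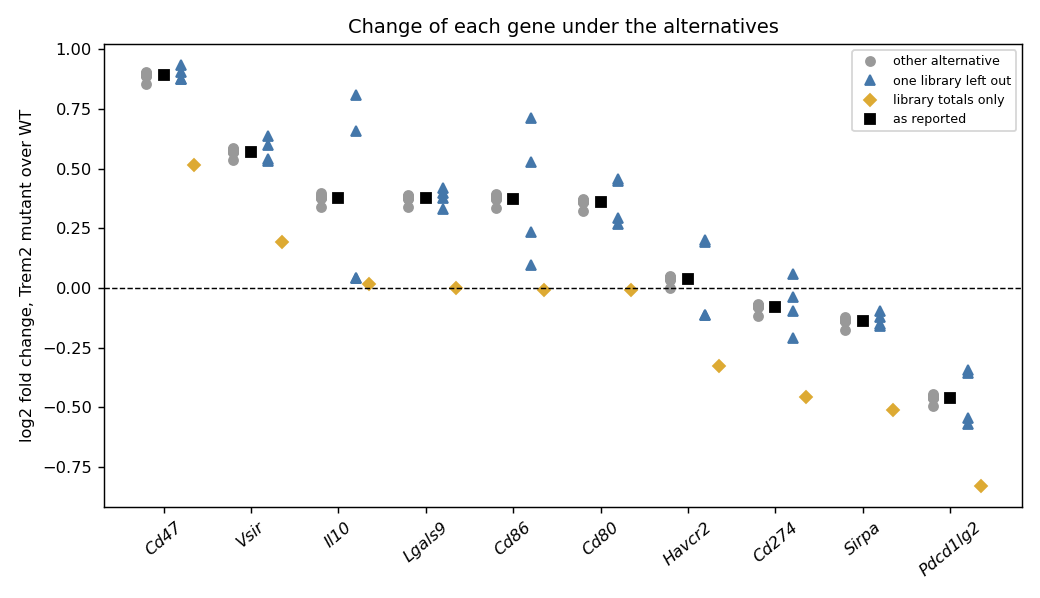
Log2 fold change of Trem2 mutant over WT (y axis) for each of the 10 genes (x axis) as reported (black squares), with each library left out in turn (blue triangles), with library totals as the only scaling (yellow diamonds) and under the other alternatives (grey circles). Scaling by totals lowers every gene by about the shift in the median of all genes, from −0.02 to −0.40, and Il10 and Cd86 move most when a library is left out.

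Scaling by library totals alone moved the median log2 fold change over every tested gene from −0.02 to −0.40. Relative to that median, Cd47 stood at 0.91 under both scalings, Vsir at 0.59, Lgals9 at 0.40, Cd80 at 0.38 and 0.39, and Pdcd1lg2 at −0.44 and −0.43. A change of scaling shifts all genes by nearly the same amount, so this agreement follows from the arithmetic and does not test the changes. Read as absolute changes under totals, Cd47 alone was called higher, and Cd274 (−0.45), Sirpa (−0.51) and Pdcd1lg2 (−0.83) were called lower.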

How the data were processed

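The authors deposited a table of whole-number read counts, one row per Ensembl gene, to which no scaling had been applied. The submitters' processing notes list FastQC, STAR 2.5.2a, DESeq2 and the builds GRCm38 and mm10, without roles. How reads were counted, whether by strand, and with which annotation was not stated. Of 17476 IDs, 17422 matched GENCODE M21, used for names, positions and exon lengths. No gene has fewer than 11 reads in all. The column numbered 3 matches no label number and was used as a mutant library. Promoters are from RefSeq (GRCm38.p6) and were found for 7 of the 10 genes.

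The test used edgeR 4.0.16 in R 4.3.3: filterByExpr (14239 genes left), TMM scaling, and the quasi-likelihood test (default form, two-sided) of mutant against WT with Benjamini-Hochberg adjustment at 0.05. It was tested on simulated data first. Residual degrees of freedom were 2, with 5.71 prior. SEs are the log2 fold change over the root of F, and 95% intervals use 7.71 degrees of freedom. CPM means and SDs are over 2 libraries. A floor of 3 counts is 0.322 to 0.359 CPM. Both pairs varied beyond counting noise, with a ratio to that noise of 2.15 in WT and 8.43 in mutant, so each library was counted separately. Each ratio summarises a pair and is not the spread of a given gene. TMM factors were 0.811 in mutant 1 and 0.949 in mutant 3, and the part of this difference in the 8.43 was not tested. Alternatives were RLE, upper quartile or no scaling factors, no or a stricter filter (10 reads in 2 libraries and a mean of 1 CPM), DESeq2 1.42.0, limma-voom (limma 3.58.1), the bias-adjusted form, leaving out 1655 noncoding and mitochondrial genes, and leaving out each library, where the lone library is assumed to vary like the other group.

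The 10 genes, 10 related lists and 14 marker lists were chosen with earlier results of these data known. Named genes are the 10, up to 3 genes of each related list with the lowest p, the related-list gene nearest in centred log2 CPM over the 4 libraries, and others counted or set beside them for their role, picked after their values were seen. One gene of the related lists and one motif searched are not reported here.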

Additional observations from a re-analysis of the deposited data

How the results depend on the processing

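No paired analysis was possible because the columns of the 2 genotypes share only the number 1. With library totals as the only scaling, 1 of the 10 genes was higher in place of 3 and 3 were lower in place of 0, and over all genes 650 were higher in place of 1360 and 4365 lower in place of 513. With upper quartile scaling 1 of the 10 was lower. DESeq2 called 205 genes lower in all. Leaving out 1 library gave 1 to 4 of the 10 higher and 0 to 1 lower, and 489 to 2090 genes higher and 92 to 912 lower. Of 130 alternative values for the 10 genes, 108 kept direction and side of the threshold, 8 newly passed it, 7 lost it and 7 changed sign. The changes of sign were Cd274 when 1 library was left out (−0.21 to 0.0578, the latter without WT 2), Cd80 (−0.0077), Cd86 (−0.0084) and Havcr2 (−0.33) with totals alone, and Havcr2 with upper quartile scaling (−0.00010) and when 1 library was left out (−0.11 to 0.20, below 0 without WT 1 and without mutant 3). Totals alone lowered the median of all genes by 0.37. Against that median Cd80 (0.38 and 0.39), Cd86 (0.395 and 0.388) and Havcr2 (0.06 and 0.07) barely moved, which follows from the arithmetic. The cause of the changes of sign was not tested. Of 28 called genes in the related lists, 6 were called whichever library was left out and 3 (Cd33, Ceacam1 and Itgb3) under every alternative. Using the longest coding transcript, added after seeing the data, moved the level per kilobase of Pdcd1lg2, Cd80, Cd86, Lgals9, Sirpa and Cd47 by more than the SD within genotypes. Depth limits Il10 most, at 20 to 43 reads per library.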
